A study of Saccharomyces cerevisiae with 24 samples.

Results

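Untreated cells of 1 mutant yeast strain, Mut3, were set against untreated cells of 2 other mutant strains, Mut1 and Mut2, counted as 1 reference. The comparison uses 6 of the 24 RNA-seq libraries of the series, 2 from Mut3 and 4 from Mut1 and Mut2, all collected at 0 min, before 0.4 M NaCl was added. Mut3 carries the substitution I13D in Ypd1 and E1101K, L1109K, E1110K and S1179D in Sln1. Mut1 carries M20D in Ypd1 and E1101K, E1110K and S1179D in Sln1, and Mut2 has the Sln1 of Mut1 with M20D and M92K in Ypd1. Mut3 therefore differs from both in the Ypd1 substitution and in Sln1 L1109K, and the parts of these 2 changes cannot be told apart. The wild type, which is given beside the mutants, has neither set of substitutions. All 4 strains were built in W303-1a and share a deletion of SHO1 marked with HIS3, a qVenus reporter behind the STL1 promoter at leu2 marked with LEU2, and marked cassettes at YPD1 (TRP1 and HPH) and SLN1 (URA3 and KanMX). How many clones stand behind a strain is not stated.

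Sln1 is a membrane histidine kinase that passes phosphate through the carrier Ypd1 to a pair of response regulators, Ssk1 and Skn7. Phosphorylated Ssk1 is inactive, so when hyperosmotic stress lowers the flow of phosphate, Ssk1 activates the Hog1 MAP kinase cascade and with it the genes of glycerol synthesis. Skn7 is a DNA-binding factor with roles in cell wall and oxidative stress genes. Cell wall stress is read by a separate cascade that ends in the MAP kinase Slt2 and the transcription factor Rlm1.

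Levels are FPKM, fragments scaled to feature length and library total, as the authors deposited them, so the read depth behind each value is unknown. Differences are Mut3 minus the mean of Mut1 and Mut2 on the scale of log2(FPKM + 1), with the SE of a limma fit over all libraries that holds the library number (0 or 1, the ending of the column name) as a block. A feature was called at a Benjamini-Hochberg adjusted p under 0.05 over 6359 tested features. Within each number the 3 untreated mutants deviated together, with correlations across genes of 0.536 to 0.556, so a gene may be lower in Mut3 within both numbers and still overlap when the 6 values are pooled. Nothing in the labels says that a strain's 2 libraries are from separate cultures; the p values below then cover only how far these libraries spread, which may be technical. The FPKM sums of the 6 libraries ran from 2474868 to 2733943 in Mut3 and from 2573680 to 2995688 in Mut1 and Mut2.

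Mut3 differed from Mut1 and Mut2 in 758 features, 11.9% of those tested. In Mut3, 298 were higher (4.69%) and 460 lower (7.23%), and 29 of the higher and 73 of the lower differed at least 2-fold. The median difference over all tested features was 0.00377. After the library number was removed, the first principal component of the 6 libraries, 42.9% of the variance, placed Mut3 at 22.32 and 24.53, against values of -12.46 to -10.41 for the 4 Mut1 and Mut2 libraries. Without the block 180 features were called, all of them among the 758, and 403 and 414 were called when Mut3 library 0 or library 1 was left out. With the block kept and only the 6 libraries fitted, 158 were called, 152 of them among the 758. Libraries of Mut3 lay outside the range of Mut1 and Mut2 for 190 of the 298 higher and 293 of the 460 lower features. Of all tested features, 6.76% lay above that range, 7.93% below it and 14.7% on either side.

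**Figure D1:**
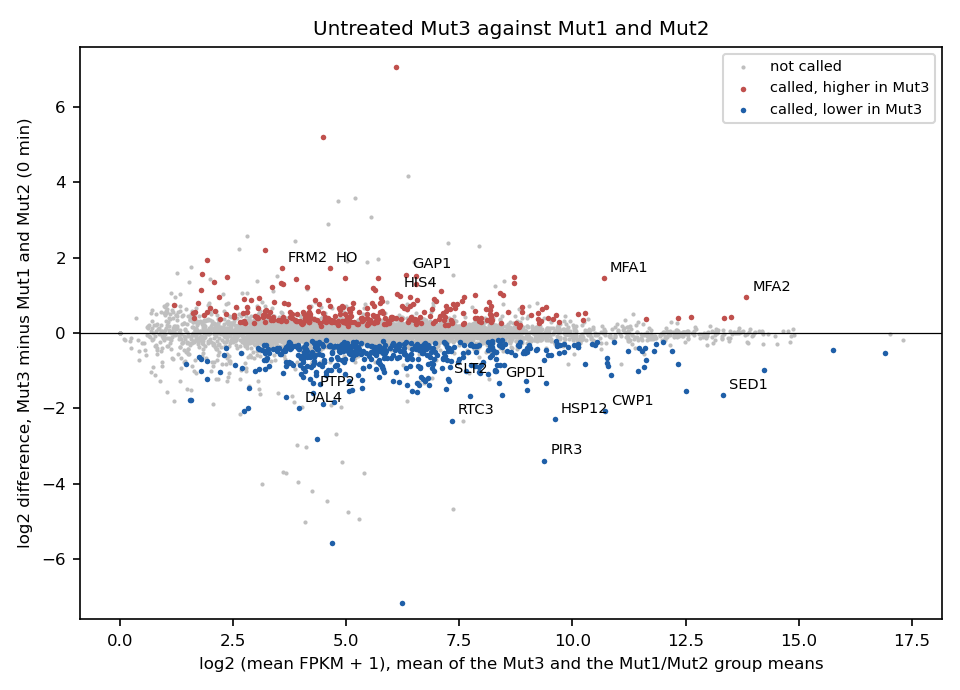
Each point is a tested feature: the horizontal axis is its level, log2 of mean FPKM plus 1 averaged over the Mut3 mean and the Mut1 and Mut2 mean, and the vertical axis is the log2 difference, Mut3 minus Mut1 and Mut2, at 0 min. The 298 features called higher in Mut3 are red, the 460 called lower are blue, and PIR3 stands lowest among the labelled genes at -3.39.

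The genes edited to make the strains were not called. SLN1 (YIL147C on chromosome IX, 69791 to 73453, coordinates of the R64 reference here and below) stood at 18.0 and 20.9 FPKM in Mut3, against 17.8 and 21.8 in Mut1, 20.3 and 21.3 in Mut2 and 19.5 and 25 in the wild type. YPD1 (YDL235C, chromosome IV, 33415 to 33918) stood at 83.0 and 86.6 FPKM in Mut3, against 76.2 and 67.5 in Mut1, 77.5 and 68.7 in Mut2 and 84.1 and 84.2 in the wild type. Neither was called between Mut3 and the other mutants (limma adjusted p = 0.649 for SLN1 and 0.485 for YPD1), nor were the markers HIS3 (0.918), TRP1 (0.296) and URA3 (0.302). FPKM of a gene does not show its substitutions, so these values do not check the alleles. SHO1 was listed at 0 in all these libraries. LEU2, the marker beside the reporter, was higher in Mut3, at 418 and 492 FPKM, against 272 and 324 in Mut1, 275.3 and 356 in Mut2 and 332 and 375 in the wild type (log2 difference 0.57 ± 0.06 SE, limma adjusted p = 1.57e-05, and 0.069 without the block). Of the 42 genes that flank the edited and marker loci, 3 on each side, 6 were called, where 11.9% of all tested features were called.

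Cell wall genes had the most calls in one direction among the 40 gene lists examined. Of 39 tested genes of the cell wall and the cell wall integrity cascade, 23 were lower and 2 higher in Mut3 than in Mut1 and Mut2, with 14 not called, and the median difference was -0.528. PIR3, CWP1, SED1 and YPS3 had the largest differences, from -3.39 to -1.64. In RNA from whole cultures, fewer cells that express a gene and less of its RNA per cell cannot be told apart. Without the block 5 of the 39 were called lower and 1 higher. With Mut3 library 0 left out 18 were lower and 2 higher, and with library 1 left out 21 were lower and 1 higher.

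PIR3 (YKL163W, chromosome XI, 144401 to 145378), which encodes a covalently attached wall glycoprotein, stood at 114.7 and 115.1 FPKM in Mut3, against 1311 and 1116 in Mut1, 1274 and 1155 in Mut2 and 38.5 and 58.5 in the wild type. Both Mut3 libraries lay far below every Mut1 and Mut2 library and above both wild-type ones. The log2 difference of -3.39 ± 0.16 (SE) is a 10.5-fold lower level (limma adjusted p = 3.53e-08). CWP1 (YKL096W, chromosome XI, 261132 to 261851), a wall mannoprotein linked to glucan, stood at 400 and 924 FPKM in Mut3, against 1980 and 3818 in Mut1, 1613 and 3483 in Mut2 and 698 and 1370 in the wild type. Its library 1 values were about double those of library 0 in every strain, and the Mut3 value was the lowest of the 4 strains at either number. The difference was -2.07 ± 0.11 (limma adjusted p = 6.09e-08, and 0.056 without the block).

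SED1 (YDR077W, chromosome IV, 600793 to 601809), an abundant wall glycoprotein, stood at 3762 and 6360 FPKM in Mut3, against 13091 and 17038 in Mut1, 14364 and 17075 in Mut2 and 3620 and 6350 in the wild type. Each Mut3 value was close to the wild-type value of the same number, and the difference from Mut1 and Mut2 was -1.64 ± 0.10 (limma adjusted p = 1.21e-07). YPS3, a wall-anchored aspartic protease, stood at 60.6 and 144 FPKM in Mut3, against 192 and 403 in Mut1, 207 and 492 in Mut2 and 34.6 and 102 in the wild type. The difference was -1.66 ± 0.13 (limma adjusted p = 9.02e-07, and 0.35 without the block). The transglycosylase gene CRH1 fell by 1.33 on the log2 scale, the glucan synthase subunit FKS1 by 0.58 and KRE6, required for another wall glucan, by 0.60. The 2 wall genes that were higher in Mut3 were TIP1 (0.72) and YGP1 (0.52). Of the TIR family of cold-shock and anaerobic mannoproteins, TIR1 was called lower (-1.17), while TIR2 (0.41), TIR3 (0.31) and TIR4 (0.35) were not called.

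Components of the wall cascade itself showed both called and uncalled members. SLT2 (YHR030C, chromosome VIII, 168890 to 170344) stood at 39.5 and 146 FPKM in Mut3, against 97.1 and 319 in Mut1, 106 and 323 in Mut2 and 31.1 and 114 in the wild type. The pooled libraries overlap, since library 1 was more than 3 times library 0 in every strain. Within each number Mut3 was below Mut1 and Mut2, with a difference of -1.23 ± 0.16 (limma adjusted p = 0.000133, and 0.91 without the block). RLM1, the transcription factor phosphorylated by Slt2, fell by 0.86 on the log2 scale and the wall sensor gene MID2 by 0.36. The upstream kinase genes PKC1 (0.08), BCK1 (-0.09), MKK1 (-0.02) and MKK2 (-0.14) were not called.

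A pair of phosphatase genes was called among 13 genes of the MAP kinase phosphatase list, both lower in Mut3, where 11.9% of all tested features were called. So few members cannot be set apart from that share, and the genes are given singly. PTP2 (YOR208W, chromosome XV, 733925 to 736177), a tyrosine phosphatase of Hog1 and Slt2, stood at 9.35 and 8.01 FPKM in Mut3, against 26.4 and 26.3 in Mut1, 30.5 and 28.9 in Mut2 and 10.8 and 12.9 in the wild type. Mut3 and the wild type lay near each other and Mut1 and Mut2 stood apart above both, with a difference of -1.59 ± 0.12 (limma adjusted p = 9.38e-07). MSG5, a dual-specificity phosphatase of Fus3 and Slt2, stood at 28.5 and 33.6 FPKM in Mut3, against 46.9 and 55.5 in Mut1, 45.2 and 57.2 in Mut2 and 32.6 and 39.4 in the wild type (-0.70 ± 0.06, limma adjusted p = 2.79e-06). PTP3, the close relative of PTP2, was not called (-0.22, limma adjusted p = 0.0957).

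Promoters were searched from 250 bases before to 50 bases after the annotated start for 4 motifs, on both strands, and none of these motifs contains another. The Rlm1 motif, which was added to the search with the wall genes' values known, was present in 3.75% of 427 promoters of genes lower in Mut3, 1.06% of 284 promoters of higher genes and 1.01% of all 5717 tested promoters. It was found in 4 of the 39 wall promoters, but not in those of PIR3, CWP1, SED1, YPS3 or SLT2. Among the named genes only PTP2 and YPD1 held the motif, and YPD1 was not called (0.23). The PTP2 window is shown because PTP2 had the largest difference among the phosphatases; the capitals mark the motif, which begins 42 bases before the start codon (XV:733873-733902, plus strand, sequence from RefSeq R64).
PTP2: atccccagtgCTATTAATAGtttacaataa

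Osmostress genes were also lower in Mut3 before salt, in part. Of 39 tested Hog1 target genes, 12 were lower and 3 higher in Mut3 than in Mut1 and Mut2, 24 were not called and the median difference was -0.144. The 12 include the genes of glycerol synthesis and the small stress proteins HSP12 and RTC3, while GRE2, CTT1, ALD3 and ENA1 were not called. Without the block 6 were lower and 1 higher. CWP1 and TIP1 stand in this list and in that of wall genes.

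HSP12 (YFL014W, chromosome VI, 107256 to 107585), which encodes a membrane-associated stress protein, stood at 340 and 187 FPKM in Mut3, against 1954 and 1269 in Mut1, 1156 and 800 in Mut2 and 69.7 and 43.8 in the wild type. All 3 mutants were above the wild type, and both Mut3 libraries were below the 4 libraries of Mut1 and Mut2. The difference was -2.28 ± 0.12, or 4.86-fold lower (limma adjusted p = 6.09e-08). RTC3 (YHR087W, chromosome VIII, 280820 to 281155) stood at 59.7 and 43.8 FPKM in Mut3, against 384 and 229 in Mut1, 196 and 269 in Mut2 and 49.7 and 23.8 in the wild type. The groups did not overlap, and the difference was -2.33 ± 0.22 (limma adjusted p = 5.15e-06).

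GPD1 (YDL022W, chromosome IV, 411825 to 413000), glycerol-3-phosphate dehydrogenase, stood at 185 and 189 FPKM in Mut3, against 522 and 446 in Mut1, 402 and 531 in Mut2 and 128 and 131 in the wild type. Mut3 lay between the wild type and the other mutants, with a difference of -1.33 ± 0.10, or 2.52-fold lower (limma adjusted p = 7.36e-07). The glycerol-3-phosphatase gene GPP2 stood at 163 and 176 FPKM in Mut3, against 313 and 327 in Mut1, 275.5 and 352 in Mut2 and 104.9 and 117 in the wild type (-0.90 ± 0.07, limma adjusted p = 7.31e-07). Its paralogue GPP1, at 2625 and 2262 FPKM in Mut3, against 2751 to 3408 in Mut1 and Mut2 and 3297 and 3187 in the wild type, was lower by a smaller step (-0.39 ± 0.06, limma adjusted p = 0.000873, and 0.12 without the block). STL1 (YDR536W, chromosome IV, 1508005 to 1509714), the glycerol importer whose promoter drives the reporter, stood at 6.80 and 6.29 FPKM in Mut3, against 10.6 and 10.1 in Mut1, 9.77 and 9.42 in Mut2 and 5.78 and 5.76 in the wild type. These untreated levels are low in every strain, and the groups did not overlap (-0.54 ± 0.07, limma adjusted p = 6.1e-05).

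Not all Hog1 targets moved with these genes. GRE2, a reductase gene, stood at 489 and 720 FPKM in Mut3, against 456 and 620 in Mut1, 582 and 608 in Mut2 and 63.7 and 94.8 in the wild type (0.08 ± 0.09, limma adjusted p = 0.702). It was high in all 3 mutants and the Mut3 values overlapped those of Mut1 and Mut2. CTT1, the cytosolic catalase, stood at 8.17 and 9.63 FPKM in Mut3, against 6.33 to 10.2 in Mut1 and Mut2 and 7.11 and 6.83 in the wild type (adjusted p = 0.726 in limma). ALD3 (-0.09) and ENA1 (-0.02) were close to 0; ENA1 has near-identical copies and is uncertain.

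Stress response elements, AGGGG or CCCCT, were present in 27.9% of the promoters of lower genes, 22.5% of those of higher genes and 22.1% of all tested promoters, and in 19 of the 39 Hog1 target promoters. Windows of the genes with the largest differences are shown with the element in capitals (HSP12 VI:107013-107039 and VI:107055-107081, RTC3 VIII:280609-280635, plus strand, RefSeq R64). The HSP12 elements begin 232 and 190 bases and the RTC3 element 200 bases before the start codon. CTT1, which was not called, holds the same letters 133 bases before its start codon (VII:654490-654516, plus strand).
HSP12 first: tagatctacagCCCCTggaaaatcgtt
HSP12 second: ttccggtcgtcCCCCTcttgatctgaa
RTC3: aacaacaacgaCCCCTtatttagtcga
CTT1: atttatcgtatCCCCTactgctacacg

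Of 22 tested genes of the signalling route from Sln1 to Hog1, 6 were lower and 1 higher in Mut3. The largest difference was that of SMP1, a transcription factor gene downstream of Hog1, at 4.82 and 6.72 FPKM in Mut3, against 7.95 and 13.3 in Mut1, 7.51 and 12.6 in Mut2 and 4.03 and 6.69 in the wild type (-0.72 ± 0.18, limma adjusted p = 0.0183). The groups did not overlap, and the call was lost without the block (0.56), without either Mut3 library and without Mut1 library 1. The 1 higher gene was MSN1, another transcription factor gene, at 16.1 and 24.7 FPKM in Mut3, against 11.1 and 17.9 in Mut1 and 8.83 and 19.9 in Mut2 (0.51 ± 0.10, limma adjusted p = 0.00461), which was not called without the block or without Mut3 library 0. SSK1, which encodes the response regulator, stood at 14.4 and 19.2 FPKM in Mut3, against 19.9 and 24.6 in Mut1, 20.8 and 26.7 in Mut2 and 15 and 19.3 in the wild type (-0.43 ± 0.09, limma adjusted p = 0.00574). The groups did not overlap, though the call was lost without the block (0.45) and without Mut3 library 0. PBS2, the kinase that activates Hog1, was called at -0.33 ± 0.08 (limma adjusted p = 0.0113), and this call was lost without the block and without either Mut3 library. HOG1 (-0.09) and SKN7 (-0.19) were not called. None of the 22 was called without the block in limma, and 1 was lower with either Mut3 library left out.

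Among the other stress lists the differences ran in both directions. Of 51 general stress genes, targets of Msn2 and Msn4, 10 were lower and 6 higher, and of 22 trehalose and glycogen genes 7 were lower and 1 higher. Without the block the general stress list had 2 lower and 1 higher, with Mut3 library 0 left out 8 and 2, and with library 1 left out 3 and 1. The trehalose and glycogen list had 1 lower and none higher without the block, and 4 lower with either Mut3 library left out. NTH1, the neutral trehalase, was lower at 34.1 and 44.2 FPKM in Mut3, against 49.2 to 66.9 in Mut1 and Mut2 (-0.52 ± 0.07, limma adjusted p = 0.000143, and 0.35 without the block). XBP1, a stress-induced repressor, stood at 5.07 and 12.4 FPKM in Mut3, against 9.28 and 19.7 in Mut1, 10.6 and 24.0 in Mut2 and 2.58 and 7.41 in the wild type (-0.80 ± 0.06, limma adjusted p = 9.38e-07). Its library numbers differ by about as much as the strains, and without the block it was not called (adjusted p = 1 in limma). PFK26, an enzyme that makes an activator of glycolysis, had a 2.58-fold lower level in Mut3. It stood at 10.6 and 11.5 FPKM in Mut3, against 28.1 and 34.0 in Mut1, 26.7 and 31.9 in Mut2 and 9.87 and 12.2 in the wild type (-1.37 ± 0.09, limma adjusted p = 2.22e-07).

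**Figure D2:**
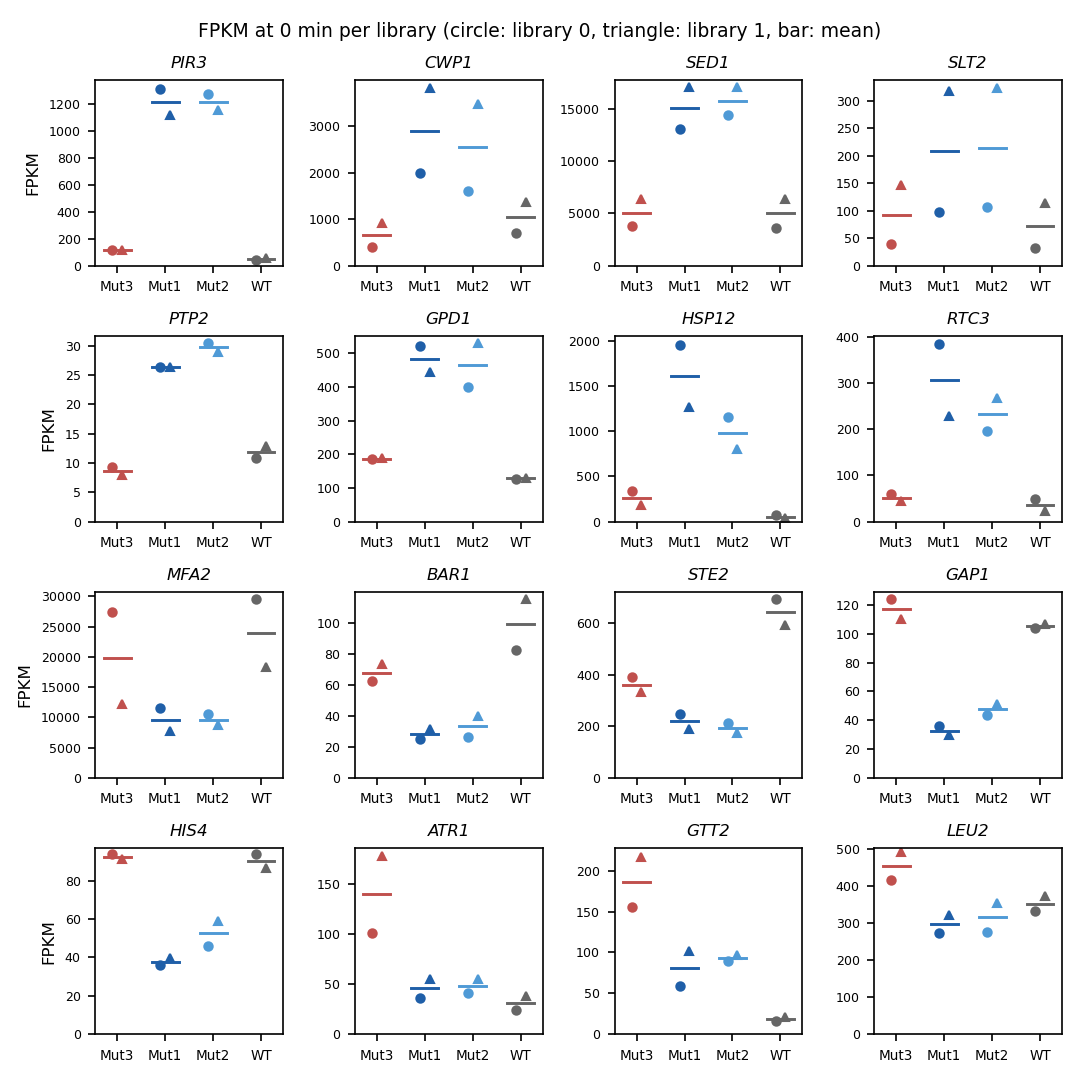
FPKM of 16 genes at 0 min, 1 panel per gene, with the strains on the horizontal axis; circles are library 0, triangles library 1 and bars the mean of the 2. In the panels of PIR3, SED1, PTP2, GPD1, HSP12 and RTC3 the Mut3 points lie below all Mut1 and Mut2 points, in those of MFA2, BAR1, STE2, GAP1, HIS4, ATR1, GTT2 and LEU2 above them, and in the SLT2 panel the 2 library numbers are far apart in each strain.

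Mating type a genes were higher in Mut3. Of 10 tested genes used by a cells to send and receive pheromone, 7 were higher, none was lower and the median difference was 0.629. The 7 are MFA1 and MFA2, BAR1, STE2, AGA2, STE6 and AXL1, and those not called are ASG7 (0.26), RAM1 (0.24) and STE14 (0.32). Without the block 5 were called higher. The medians of the same 10 genes against the wild type were -0.285 in Mut3 and -1.1 in Mut1 and Mut2.

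MFA2 (YNL145W, chromosome XIV, 352414 to 352530), one of the pair of genes for a-factor, stood at 27414 and 12249 FPKM in Mut3, against 11599 and 7665 in Mut1, 10479 and 8710 in Mut2 and 29594 and 18286 in the wild type. The groups did not overlap, though the 2 Mut3 libraries differed from each other by more than 2-fold (0.95 ± 0.19, limma adjusted p = 0.00409, 0.57 without the block, and not called without Mut3 library 0). MFA1 (YDR461W, chromosome IV, 1385176 to 1385286), the other a-factor gene, stood at 3399 and 1505 FPKM in Mut3, against 630 and 682 in Mut1, 955 and 1120 in Mut2 and 2175 and 2358 in the wild type (1.46 ± 0.25, limma adjusted p = 0.00154). Both short genes put Mut3 above the other mutants at each library number.

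BAR1 (YIL015W, chromosome IX, 322342 to 324105), the protease that cleaves alpha-factor, stood at 62.0 and 73.0 FPKM in Mut3, against 24.8 and 31.1 in Mut1, 26.5 and 39.7 in Mut2 and 82.5 and 114.99 in the wild type. Mut3 lay between the wild type and the other mutants, 2.2-fold above Mut1 and Mut2 (1.14 ± 0.11, limma adjusted p = 9.11e-06). STE2 (YFL026W, chromosome VI, 82580 to 83875), the alpha-factor receptor, stood at 390 and 334 FPKM in Mut3, against 248 and 189 in Mut1, 212 and 173 in Mut2 and 695 and 593 in the wild type (0.82 ± 0.09, limma adjusted p = 2.05e-05). AGA2, the adhesion subunit of a-agglutinin, had a log2 difference of 0.76 and STE6, the a-factor exporter, of 0.49.

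Genes of pheromone response and fusion had calls in both directions: of 34 tested, 7 were higher and 6 lower. ASG7, which was not called, stands in this list and in that of mating type a genes. The higher count was 1 without the block, 3 with Mut3 library 0 left out and 2 with library 1 left out, while the lower count was 6 in each of these fits. SST2, which turns off the pheromone G protein, stood at 23.4 and 24.0 FPKM in Mut3, against 10.0 and 11.5 in Mut1, 8.92 and 7.93 in Mut2 and 37.9 and 39.2 in the wild type (1.23 ± 0.11, limma adjusted p = 2.69e-06). FUS1, a fusion gene, was low in all strains at 2.55 and 2.94 FPKM in Mut3, against 1.03 to 1.95 in Mut1 and Mut2 and 3.20 and 4.38 in the wild type (0.57 ± 0.13, limma adjusted p = 0.00865, and 0.18 without the block), and leaving out either Mut3 library ended its call. The lower ones include PRM5 (-1.38), which is also known as a target of the wall cascade, PRM10 (-1.30, which overlaps another gene and is uncertain), MSG5 (-0.70) and the chitin synthase gene CHS1 (-0.67).

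Markers of the alpha cell type were read beside these. STE3, the a-factor receptor of alpha cells, stood at 0.174 and 0.583 FPKM in Mut3, against 0 to 0.142 in Mut1 and Mut2 and 0.422 and 0.426 in the wild type, and MF(ALPHA)1 at 0.529 and 0.343 FPKM in Mut3, against 0 to 0.262 in Mut1 and Mut2. Both markers were under 1 FPKM in every mutant library. SAG1, the alpha-agglutinin gene, stood at 10.2 and 19.8 FPKM in Mut3, against 10.3 to 16.8 in Mut1 and Mut2, and MF(ALPHA)2, a gene for alpha-factor, at 13.5 and 26.5 FPKM in Mut3, against 11.3 to 20.2 in Mut1 and Mut2; neither was called (0.11 and 0.35). AFB1 was the 1 alpha-cell gene called of 3 tested, at 51.4 and 106 FPKM in Mut3, against 153 and 254 in Mut1, 174 and 273 in Mut2 and 28.4 and 68.6 in the wild type (-1.48 ± 0.13, limma adjusted p = 3.3e-06, and 0.17 without the block). It lies on chromosome XII (228908 to 229582) beside NFG1, a Hog1 list member that was also lower (-1.27). The summed FPKM of the alpha list ran from 75.9 to 153 in Mut3, against 175 to 308 in Mut1 and Mut2 and 52.3 to 112 in the wild type; its part in the other results was not tested.

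The pheromone response element, TGAAACA or TGTTTCA, was present in 8 of the 10 promoters of mating type a genes, in 12.7% of those of all genes higher in Mut3, 7.26% of those of lower genes and 7.26% of all tested promoters. Windows from 3 of the called genes show it in capitals (BAR1 IX:322147-322175, STE2 VI:82372-82400, MFA2 XIV:352208-352236, plus strand, RefSeq R64), starting 184, 197 and 195 bases before the start codon.
BAR1: gccagctattcTGAAACAcaccacattat
STE2: taagtacatgaTGAAACAcatatgaagaa
MFA2: aggaacgaaaaTGAAACAtgcatgtcaga

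Of 27 tested genes of arginine, allantoin and nitrogen use, 8 were higher and 1 lower in Mut3, and the 8 include the permease genes GAP1, MEP2, OPT1, AGP1 and MEP1. Without the block 4 were higher, with Mut3 library 0 left out 5 and with library 1 left out 4, each with 1 lower. GAP1 (YKR039W, chromosome XI, 515063 to 516871), the general amino acid permease, stood at 124 and 110 FPKM in Mut3, against 36.0 and 29.5 in Mut1, 43.9 and 51.5 in Mut2 and 104 and 107 in the wild type. Mut3 and the wild type were close and the other mutants well below them, with a 2.93-fold difference (1.55 ± 0.09, limma adjusted p = 1.21e-07). MEP2, an ammonium permease, stood at 59.2 and 74.3 FPKM in Mut3, against 25.3 and 30.5 in Mut1, 24.2 and 34.2 in Mut2 and 50.2 and 69.4 in the wild type (1.2 ± 0.08, limma adjusted p = 4.62e-07). DIP5, the permease for acidic amino acids, stood at 42.3 and 48.5 FPKM in Mut3, against 14.0 and 14.0 in Mut1, 16.3 and 19.1 in Mut2 and 52.8 and 58.1 in the wild type (1.47 ± 0.13, limma adjusted p = 3.84e-06).

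DAL4, the allantoin permease, was the 1 lower member of the nitrogen list. It stood at 4.39 and 6.03 FPKM in Mut3, against 19.5 and 25.1 in Mut1, 22.3 and 28.6 in Mut2 and 4.89 and 7.51 in the wild type (-2.0 ± 0.10, limma adjusted p = 3.53e-08). Other allantoin genes ran the other way, with DAL1 (0.53), DAL3 (0.64) and DAL7 (0.23) called higher. CAN1, the arginine permease gene, was not called (0.01).

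Of 52 amino acid synthesis genes of the Gcn4 regulon, 12 were higher and 3 lower, with a median of 0.0298. Without the block 4 were higher and none lower, with Mut3 library 0 left out 7 and none, and with library 1 left out 8 and 1. HIS4 (YCL030C, chromosome III, 65934 to 68333), an enzyme of histidine synthesis, stood at 93.8 and 91.3 FPKM in Mut3, against 35.9 and 39.6 in Mut1, 46.1 and 58.8 in Mut2 and 94.0 and 86.4 in the wild type. The Mut3 and wild-type ranges overlapped, and Mut3 was 2.06-fold above the other mutants (1.04 ± 0.10, limma adjusted p = 4.79e-06). The higher members include 5 lysine synthesis genes: LYS9 (0.64), LYS20 (0.61, uncertain because of its near-identical copy LYS21), LYS1 (0.43), LYS12 (0.35) and LYS4 (0.34). Leucine and aromatic synthesis genes split, with LEU9 (0.46) and LEU1 (0.25) higher, and LEU4 (-0.29), ARO3 (-0.22) and ARO8 (-0.20) lower. GCN4 itself was not called (-0.17).

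The Gcn4 motif, TGACTC or GAGTCA, was present in 12.3% of promoters of higher genes, 5.39% of those of lower genes, 8.24% of all tested promoters and 29 of the 52 promoters of the Gcn4 list. HIS4 holds at least 2, beginning 243 and 199 bases before the start codon (III:68560-68583 and III:68516-68543, minus strand, RefSeq R64), shown with the motif in capitals.
HIS4 first: ctaatagTGACTCcggtaaattag
HIS4 second: cccatgcacagTGACTCacgttttttta

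Skn7 targets and oxidative stress genes had 12 higher and 2 lower members among 25 tested, with a median of 0.287. Without the block 4 were called, all higher, and 5 were higher with either Mut3 library left out. ATR1 (YML116W, chromosome XIII, 38196 to 39824), a multidrug exporter, stood at 101 and 178 FPKM in Mut3, against 35.6 and 55.2 in Mut1, 41.1 and 55.2 in Mut2 and 23.8 and 38.2 in the wild type (1.52 ± 0.16, limma adjusted p = 1.43e-05). GTT2 (YLL060C, chromosome XII, 21138 to 21839), a glutathione transferase, stood at 155 and 218 FPKM in Mut3, against 58.8 and 102 in Mut1, 89.1 and 97.1 in Mut2 and 15.9 and 20.5 in the wild type (1.11 ± 0.13, limma adjusted p = 5.34e-05, and 0.065 without the block). In both genes Mut3 was the highest of the 4 strains and Mut1 and Mut2 were above the wild type. The exporter gene FLR1 (1.00), GPX2 (0.86) and the glutathione synthesis gene GSH1 (0.78) were higher too.

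The 2 lower members of that list were SRX1 and OCH1. SRX1, which encodes the sulfiredoxin that repairs peroxiredoxins, stood at 12.5 and 15.1 FPKM in Mut3, against 21.6 and 33.5 in Mut1, 32.4 and 38.3 in Mut2 and 2.14 and 3.81 in the wild type (-1.11 ± 0.10, limma adjusted p = 3.91e-06, and 0.058 without the block). OCH1, a Golgi mannosyltransferase gene known as a Skn7 target, stood at 119 and 146 FPKM in Mut3, against 143 and 173 in Mut1, 149 and 181 in Mut2 and 50.1 and 65.6 in the wild type. All 3 mutants were above the wild type, and the small difference between them, -0.29 ± 0.06 (limma adjusted p = 0.00522), was not called without the block (0.71).

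**Figure D3:**
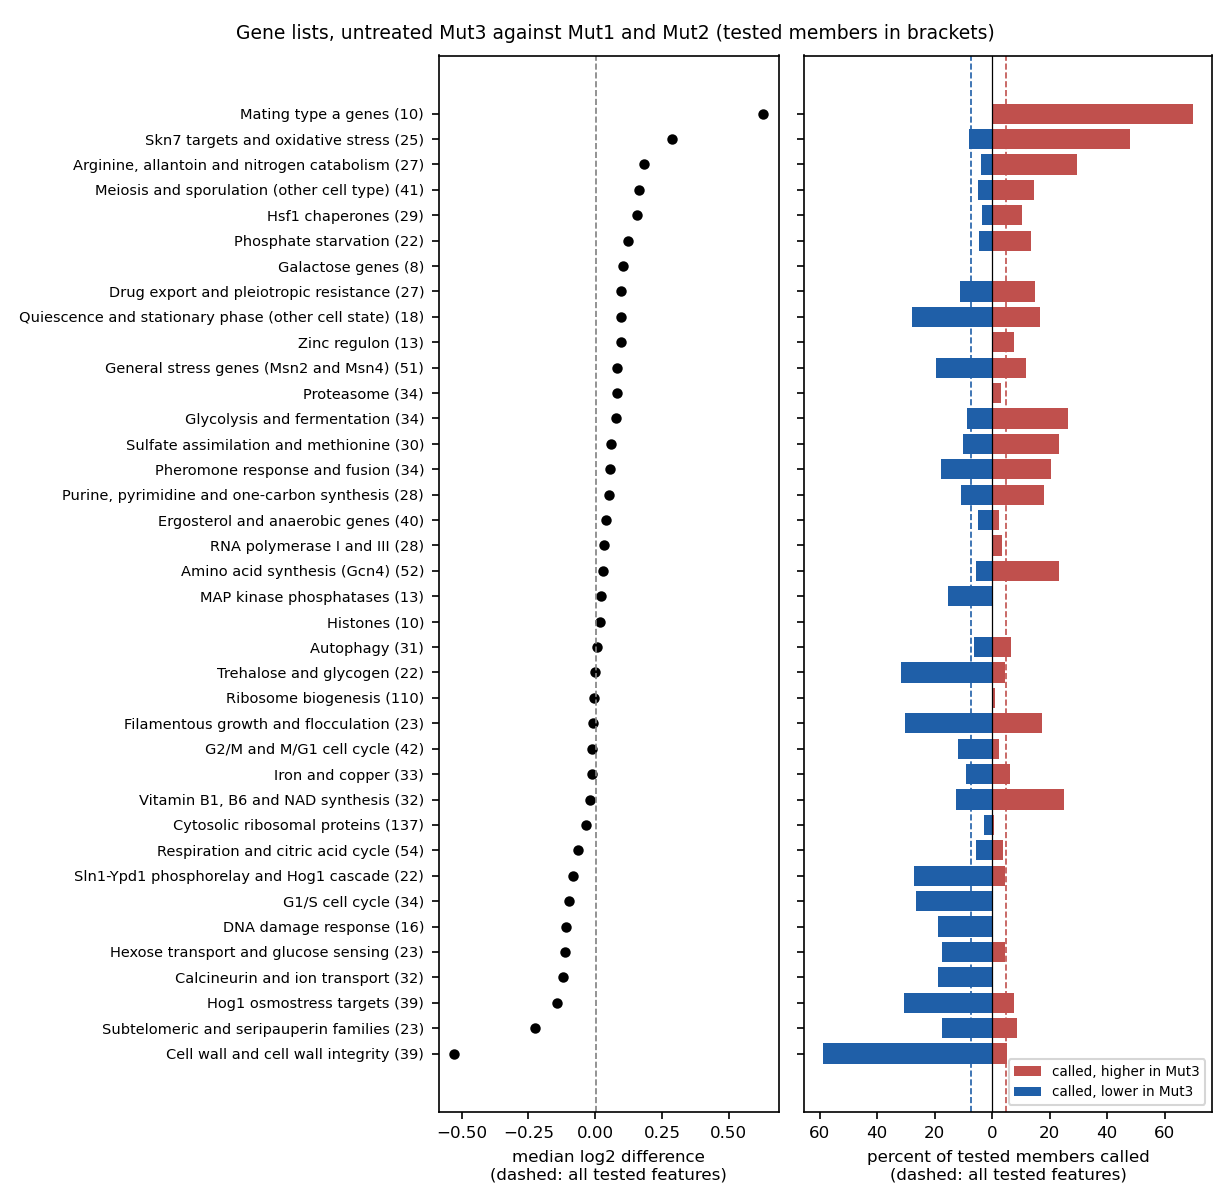
Gene lists with 8 or more tested members (their number in brackets): the left panel gives the median log2 difference, Mut3 minus Mut1 and Mut2, and the right panel the percent of tested members called higher (right, red) or lower (left, blue) in Mut3, with dashed lines for all tested features (4.69% higher and 7.23% lower). The list of mating type a genes stands at the top with a median of 0.629 and that of cell wall genes at the bottom with -0.528.

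Some genes outside the lists differed by as much as those within them. HO (YDL227C, chromosome IV, 46271 to 48031), the mating-type switching endonuclease gene, stood at 37.4 and 36.7 FPKM in Mut3, against 7.76 and 8.73 in Mut1, 12.1 and 14.9 in Mut2 and 52.4 and 55.8 in the wild type. Its log2 difference of 1.72 ± 0.16 is 3.29-fold (limma adjusted p = 5.96e-06), and Mut3 lay nearer to the wild type than to the other mutants. FRM2 stood at 12.2 and 22.7 FPKM in Mut3, against 3.76 and 3.34 in Mut1, 5.10 and 5.60 in Mut2 and 5.59 and 7.73 in the wild type (1.72 ± 0.29, limma adjusted p = 0.00124). YNL134C stood at 553 and 643 FPKM in Mut3, against 205 and 252 in Mut1, 253 and 249 in Mut2 and 86.9 and 98.1 in the wild type, so that all mutants were above the wild type and Mut3 the highest (1.32 ± 0.10, limma adjusted p = 8.52e-07).

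The lower genes outside the lists include neighbours on chromosome XIV, YNR065C and YNR066C. YNR065C stood at 7.92 and 9.09 FPKM in Mut3, against 34.0 and 38.0 in Mut1, 28.9 and 36.2 in Mut2 and 9.97 and 14.4 in the wild type (-1.89 ± 0.10, limma adjusted p = 6.09e-08). YNR066C had -1.83 ± 0.10, YPR078C -1.70 ± 0.13 and YKL102C -2.83 ± 0.23. YKL102C stood at 2.55 and 4.79 FPKM in Mut3, against 18.6 and 51.9 in Mut1, 18.5 and 51.6 in Mut2 and 8.17 and 28.6 in the wild type, so Mut3 was the lowest of the 4 strains (limma adjusted p = 1.79e-06, and 0.068 without the block). IMD2, an enzyme of guanine nucleotide synthesis, is a member of the purine list and was lower too. It stood at 190 and 191 FPKM in Mut3, against 419 and 345 in Mut1, 268 and 285 in Mut2 and 35.0 and 43.6 in the wild type (-0.76 ± 0.13, limma adjusted p = 0.0011). YAR073W and YAR075W, features that were not matched to the reference, were called lower as well (-2.06 and -2.0). Without a match they were not checked for overlaps or near-identical copies, so both are uncertain.

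In 4 called features one side was listed at 0 in every library, so no fold is given. YBL071C-B stood at 156 and 116 FPKM in Mut3 and was listed at 0 in all Mut1 and Mut2 libraries, with 55 and 0 in the wild type. YGR122C-A stood at 67.9 and 18.8 FPKM in Mut3 and was listed at 0 in all Mut1 and Mut2 libraries. YLR149C-A was listed at 0 in both Mut3 libraries, against 130 and 148 in Mut1 and 219 and 97.5 in Mut2. YLR466C-B was listed at 0 in both Mut3 libraries, against 38.4 and 78.0 in Mut1 and 32.1 and 51.2 in Mut2. Wild-type libraries of YBL071C-B and YLR149C-A held both a 0 and a high value, so these listings vary between libraries of 1 strain.

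Ribosomal genes had few calls, where 11.9% of all tested features were called. Of 137 cytosolic ribosomal protein genes, 4 were lower and 1 higher, with a median of -0.0332. Of 110 ribosome biogenesis genes, 1 was higher, UTP30 (0.40, not called without either Mut3 library). Of 10 histone genes none was called, but so few members cannot be set apart from the share over all features. The G1/S list had a larger share, 9 lower and none higher of 34, among them the G1 cyclin gene CLN2 at 84.5 and 122 FPKM in Mut3, against 114 and 173 in Mut1, 147 and 185 in Mut2 and 78.3 and 128 in the wild type (-0.58 ± 0.08, limma adjusted p = 0.000329, and 0.55 without the block). PCL1, a cyclin of the kinase Pho85, was lower by a larger step at 58.1 and 76.0 FPKM in Mut3, against 94.3 and 141 in Mut1, 119 and 168 in Mut2 and 38.8 and 57.0 in the wild type (-0.93 ± 0.09, limma adjusted p = 6.17e-06, and 0.069 without the block). Without the block 2 of the 34 were called lower, with Mut3 library 0 left out 6 and with library 1 left out 5.

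The remaining lists are given by their counts, where 4.69% of all tested features were called higher and 7.23% lower. A list near these shares cannot be set apart from them. In glycolysis and fermentation 9 of 34 were higher and 3 lower, with TDH1, a stress-induced isozyme of glyceraldehyde-3-phosphate dehydrogenase, at 262 and 249 FPKM in Mut3, against 140 and 117 in Mut1, 161 and 110 in Mut2 and 51.8 and 38.9 in the wild type (0.97 ± 0.15, limma adjusted p = 0.000634); 2 of the 34 were higher without the block and with either Mut3 library left out. Sulfate and methionine genes had 7 higher and 3 lower of 30, vitamin and NAD genes 8 and 4 of 32, purine and one-carbon genes 5 and 3 of 28, and drug export genes 4 and 3 of 27. Without the block the higher counts of these 4 lists were 1, 1, 2 and 2, and with Mut3 library 1 left out 2, 5, 2 and 2. Filamentous growth genes had 4 higher and 7 lower of 23, calcineurin and ion transport genes none higher and 6 lower of 32, hexose transport genes 1 and 4 of 23, and Hsf1 chaperones 3 and 1 of 29. Without the block the filamentous list had 1 lower, the calcineurin list none, the hexose list 1 and the chaperone list no call. Respiration had 2 higher and 3 lower of 54, ergosterol 1 and 2 of 40, proteasome 1 and none of 34, autophagy 2 and 2 of 31, iron and copper 2 and 3 of 33, zinc 1 and none of 13, RNA polymerases I and III 1 and none of 28, and galactose none of 8. Phosphate genes had 3 higher and 1 lower of 22, subtelomeric families 2 and 4 of 23, G2/M genes 1 and 5 of 42, and the DNA damage list none and 3 of 16. Without the block the phosphate list had 1 and 1, the subtelomeric list no call, and the G2/M and DNA damage lists 2 lower each. Genes of meiosis, a program of diploid cells, had 6 higher and 2 lower of 41 at low levels, and 1 and 1 without the block. Their summed FPKM was 219 to 280 in Mut3, against 223 to 251 in Mut1 and Mut2. Stationary phase genes had 3 higher and 5 lower of 18, and none higher and 2 lower without the block. The summed FPKM of this list ran from 568.9 to 688.5 in Mut3, against 1289 to 2401 in Mut1 and Mut2. In the wild type it was 357.5 to 384.4. The part of this list in the other results was not tested. The 2 tested mitochondrial genome features were not called.

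In the fit over all libraries, Mut1 and Mut2 gave similar counts when Mut3 was set against each, and the 2 comparisons share the Mut3 libraries. Against Mut1 563 features were called (8.85%), 208 higher (3.27%) and 355 lower (5.58%). Against Mut2 644 were called (10.1%), 245 higher (3.85%) and 399 lower (6.27%). These counts rest on that fit, since on the compared groups alone 2 features were called against Mut1 and 0 against Mut2. PIR3 differed by -3.39 from Mut1 and by -3.39 from Mut2, SED1 by -1.61 and -1.68, GPD1 by -1.36 and -1.30 and PTP2 by -1.50 and -1.67. HSP12 stood further from Mut1 (-2.64) than from Mut2 (-1.92), as did HO (2.04 and 1.4) and GAP1 (1.81 and 1.28). PHO84, a phosphate transporter gene that overlaps another gene and has a near-identical copy, differed by 2.15 from Mut1 and 0.47 from Mut2, so its pooled value of 1.31 rests mainly on Mut1, at 28.5 and 25.9 FPKM beside 154 and 99.7 in Mut3. The tests of Mut1 against Mut2 were not run here.

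The same strains were compared at 10 min in salt, in libraries other than those that give the 0 min difference. Both comparisons come from the same fit over all libraries. They share its estimate of the spread and its block, so the calls at 0 and 10 min are not independent. Mut3 differed from Mut1 and Mut2 in 1623 features (25.5%), 809 higher (12.7%) and 814 lower (12.8%). Of the 298 features higher at 0 min, 163 were higher and 17 lower at 10 min, and the 163 are 54.7% of the first list and 20.1% of the second. Of the 460 lower at 0 min, 195 were lower and 56 higher at 10 min, and the 195 are 42.4% of the first list and 24.0% of the second.

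The difference itself changed between 0 and 10 min in 616 features (9.69%), upwards in 384 (6.04%) and downwards in 232 (3.65%). Of the Hog1 list, 25 of 39 were higher in Mut3 and none lower at 10 min, and for 21 the difference moved upwards. HSP12 stood at 38534 and 25404 FPKM in Mut3 at 10 min, against 27592 and 18992 in Mut1 and 25948 and 16521 in Mut2. The libraries overlapped when pooled, and the log2 difference was 0.52 ± 0.12 at 10 min, against -2.28 at 0 min (change 2.80 ± 0.17, limma adjusted p = 7.89e-07). GPD1 moved by 1.55 ± 0.14 to a difference of 0.22 at 10 min that was not called (limma adjusted p = 0.129), and STL1 by 1.14 ± 0.09 to 0.60.

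STL1 had 2726 and 2567 FPKM in Mut3 at 10 min, against 1797 and 1843 in Mut1, 1713 and 1623 in Mut2 and 2588 and 2532 in the wild type. Mut3, lower than Mut1 and Mut2 before salt, was above them at 10 min and near the wild type. PTP2, at 28.6 and 27.2 FPKM in Mut3, against 30.9 and 26.9 in Mut1, 30.4 and 28 in Mut2 and 28.2 and 35.8 in the wild type, no longer differed by a called step (-0.06 ± 0.12, limma adjusted p = 0.789). Its difference had changed by 1.53 ± 0.17 (limma adjusted p = 6.64e-05). SLT2 (0.17) and CWP1 (0.07) were likewise not called at 10 min.

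PIR3 remained lower in Mut3 in salt. It stood at 296 and 277 FPKM in Mut3 at 10 min, against 1654 and 1432 in Mut1, 1594 and 1559 in Mut2 and 122 and 179 in the wild type (-2.44 ± 0.16, limma adjusted p = 4.22e-07). Of the wall list 17 of 39 were lower and 6 higher at 10 min, and the difference moved upwards for 13 members and downwards for 1.

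Among the mating type a genes, 7 of 10 were higher in Mut3 at 10 min and none had a called change of the difference. BAR1 stood at 39.6 and 42.9 FPKM in Mut3 at 10 min, against 16.3 and 15.8 in Mut1, 13.6 and 18.0 in Mut2 and 53.6 and 64.9 in the wild type. The difference of 1.32 ± 0.11 (limma adjusted p = 3.6e-06) had changed by 0.19 ± 0.16 since 0 min (limma adjusted p = 0.538). HO moved the other way, to 9.19 and 7.26 FPKM in Mut3, against 3.53 and 4.37 in Mut1 and 8.43 and 6.42 in Mut2, and its difference shrank by 1.21 on the log2 scale (limma adjusted p = 0.0043). The sulfate and methionine list had 1 higher and 17 lower of 30 at 10 min, with 13 members whose difference moved downwards and none upwards.

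**Figure D4:**
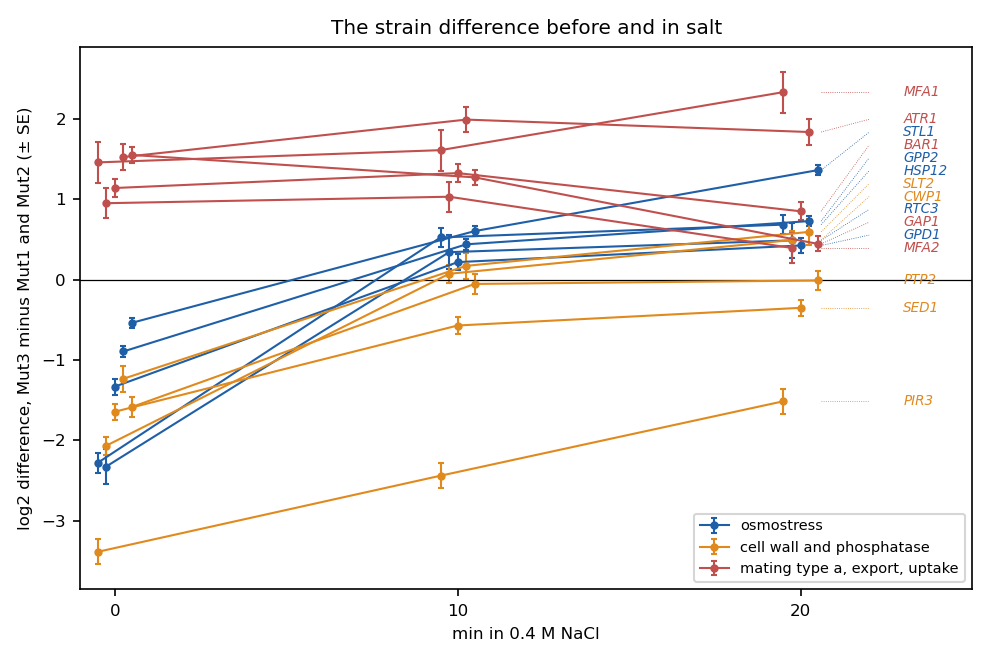
Log2 difference, Mut3 minus Mut1 and Mut2, with its SE, for 15 genes at 0, 10 and 20 min in 0.4 M NaCl; points of a time are set slightly apart to keep the bars readable, and dotted lines lead from the last point of each gene to its name. HSP12 crosses 0 between 0 and 10 min (-2.28 and 0.52), PIR3 stays below it (-2.44 at 10 min) and BAR1 above it (1.32 at 10 min).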

How the data were processed

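Per the labels' protocols, cells were grown to mid-log phase in synthetic complete medium, RNA was isolated with the miRNeasy kit and DNase, and the libraries were TruSeq stranded mRNA. The authors deposited 1 table of FPKM values, 1 column per library, made with TopHat2 and Cuffdiff on sacCer3, per the submitters' processing notes. Their versions, the gene annotation and a scaling between columns, if any, were not given in the sources used here. Counts were not used; only 27.4 to 44.8% of low values fell on whole-read steps (tolerance 0.1 read), so neither depth nor the precision that depth gives could be recovered.

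The column names give strain and time, and the labels do not say which replicate number the endings 0 and 1 stand for. The number was set as a block by the design of the comparison. Same-numbered libraries deviated together in all 66 pairs of groups (correlation 0.23 to 0.601). Of 7126 features, 6162 were matched to R64. The test covered the 6359 features whose mean over the 24 libraries reached 1 FPKM. After a pseudocount of 1 FPKM and log2, limma 3.58.1 under R 4.3.3 was fitted with 12 group means, the block and a variance trend, two-sided, with 11 residual and 2.57 prior degrees of freedom. Fold changes are therefore ratios of FPKM plus 1 and understate changes of low genes. Overlapping genes (189 tested) were taken from reference coordinates and near-identical copies (172 tested) from a blastn 2.17.0 search that asked for 95% identity along 50% of a feature. Features not matched to the reference were checked for neither and passed as free of both.

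Named genes are a panel of osmostress, signalling and marker genes, the 15 highest and 15 lowest called features that averaged 5 FPKM or more, no overlap between libraries and neither kind of uncertainty, and up to 4 called members per list with the largest differences; further list members were picked with their values in view. The members and the 40 lists were chosen with earlier results of these data known. Alternatives were no block, a pseudocount of 0.1, no filter, median-ratio rescaling, the compared groups alone, protein-coding genes alone, each library left out and, added after the data were seen, rescaling without the block.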

Additional observations from a re-analysis of the deposited data

Results flagged for a closer look

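The difference between Mut3 and the other mutants changed between 0 and 10 min of salt, by a test of the change itself (limma, adjusted p under 0.05), in 616 features. The 0 min values that chose some of the genes below also enter this change, so its direction is in part set by that choice. On the log2 scale the change was upwards for the osmostress and signalling genes HSP12 (2.80), RTC3 (2.67), GPD1 (1.55), PTP2 (1.53), SLT2 (1.4), GPP2 (1.33), STL1 (1.14), SSK1 (0.96), GPP1 (0.62) and ALD3 (0.47). It was also upwards for the wall genes CWP1 (2.14), SED1 (1.07), YPS3 (0.98) and PIR3 (0.95), for the fusion gene FUS1 (0.65) and the permease gene DAL4 (0.49), and for YPR078C (1.64), YKL102C (1.57), YNR065C (0.84) and YNR066C (0.64). It was downwards for HO (-1.21), DIP5 (-0.68) and YNL134C (-0.53).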

How the results depend on the processing

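Leaving out the library block lowered each count, and fitting the compared groups alone lowered the 0 min counts further. With no replicate block 180 features were called for Mut3 against Mut1 and Mut2 at 0 min, 114 against Mut1 alone, 120 against Mut2 alone, 326 at 10 min and 77 for the change between 0 and 10 min; with rescaling and no block the first count was 200. Fitted on the compared groups alone, 158 were called against both mutants, 2 against Mut1 and 0 against Mut2 in limma (818 at an unadjusted p under 0.05), where a pair of groups leaves few residual degrees of freedom. Leaving out 1 library gave 403 to 815 calls at 0 min (403 without Mut3 library 0, 414 without Mut3 library 1), 329 to 354 against Mut1, 371 to 587 against Mut2, 685 to 1398 at 10 min and 291 to 675 for the change. The pseudocount, the filter, protein-coding genes alone and rescaling kept each count within 1.5 times; rescaling called 385 higher and 491 lower at 0 min. Of 162 named genes, none changed direction past the threshold under these alternatives, and 83 were no longer called in the compared groups alone, 82 without the block, 79 with rescaling and no block, 44 without Mut3 library 0 and 43 without Mut3 library 1. Unknown depth, 2 libraries per strain and the shared library number limit all values; the cause of the lost calls was not tested.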
